A study of Mus musculus with 6 samples.

Results

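The autophagy machinery was followed here as 39 genes named in the gene count table, chosen for function from the 54532 genes listed, and covering every step from initiation of the autophagosome to its fusion with the lysosome. Each of the 39 symbols matched 1 row. RNA sequencing compared 3 libraries of treated mouse L929 cells, which received actinomycin D (1 µg/ml) and TNF-α (10 ng/ml) for 12 hours, with 3 control libraries of the same line, both labelled as wild type. TNF-α is a cytokine of inflammation, actinomycin D an inhibitor of RNA synthesis, and L929 a fibroblast line much used to study killing by this cytokine. No library had 1 agent alone, so the agents cannot be told apart, and the protocol text of the labels gives the treatment for control samples too, so that the groups rest on the titles.

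Autophagy encloses cytoplasm in a double membrane and delivers it to lysosomes. The ULK1 kinase complex starts the process, a class III phosphatidylinositol 3-kinase complex around beclin 1 marks the growing membrane (the phagophore), lipid-moving proteins enlarge it, and ubiquitin-like conjugation systems attach Atg8-family proteins (LC3 and GABARAP) to it, where they bind cargo receptors such as p62. In L929 cells, death with autophagic features that depends on Atg7 and beclin 1 has been described after caspase inhibition.

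Library totals ran from 16056207 to 18036322 counts. In treated replicate 3 the difference from controls was smallest for 10 of the 22 members called lower and 7 of the 11 called higher, against 58.7% and 61.0% of all genes called in those directions. Of 11 fibroblast markers, 9 had enough counts to be tested. Of these 7 rose and 2 fell, where 34.6% and 40.2% of all tested genes did. The summed level of the list was 19568 to 23189.8 CPM in treated and 6294 to 8180.0 CPM in control libraries. Fap had no count, and Thy1 had 0 treated against 6 control counts. The summed macrophage markers reached 23.5 to 31 CPM in treated and 2.17 to 2.77 CPM in control libraries, led by Cd68, a lysosomal membrane protein gene, at 25.7 CPM in treated and 1.85 CPM in control libraries. Csf1r averaged 0.932 CPM in treated and 0.663 CPM in control libraries, while Itgam had no count and Ptprc and Adgre1 had at most 1 count in either group. Lymphocyte, epithelial and endothelial markers summed to at most 1.59 CPM in any library. The part of these markers and of treated replicate 3 in the results was not tested.

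Promoter sequences are shown for members whose change is described below: the 2 members with a CACGTG E-box upstream of the deposited gene, and, among members with a single printable entry of at least 150 such bases, the 2 Atg8-family members with the highest level and the 2 members with the lowest log2 fold change. RefSeq start-site windows on GRCm38.p6 were at hand for 32 of the 39 members, and the stretch printed is the part of the 250 bases before the RefSeq start site that lies outside the deposited gene. Each runs 5′ to 3′ on the strand of its gene, and capitals mark CACGTG, the core of the element bound by TFEB and TFE3, transcription factors of lysosomal and autophagy genes.
Atg3 (chr16:45158579-45158784, + strand): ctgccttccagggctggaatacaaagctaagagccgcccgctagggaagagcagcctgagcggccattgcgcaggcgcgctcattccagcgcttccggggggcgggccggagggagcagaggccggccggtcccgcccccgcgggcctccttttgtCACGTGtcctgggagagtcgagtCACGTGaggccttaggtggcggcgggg
Atg5 (chr10:44268089-44268338, + strand): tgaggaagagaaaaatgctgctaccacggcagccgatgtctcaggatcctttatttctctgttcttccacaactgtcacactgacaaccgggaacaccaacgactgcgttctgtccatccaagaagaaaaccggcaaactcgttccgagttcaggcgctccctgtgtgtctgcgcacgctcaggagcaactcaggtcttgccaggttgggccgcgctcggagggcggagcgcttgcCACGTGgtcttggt
Map1lc3b (chr8:121590188-121590360, + strand): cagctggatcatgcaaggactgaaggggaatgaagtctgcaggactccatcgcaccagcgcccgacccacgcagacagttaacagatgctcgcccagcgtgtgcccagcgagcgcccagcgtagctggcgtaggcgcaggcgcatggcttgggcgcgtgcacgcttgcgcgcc
Gabarapl2 (chr8:111940453-111940702, + strand): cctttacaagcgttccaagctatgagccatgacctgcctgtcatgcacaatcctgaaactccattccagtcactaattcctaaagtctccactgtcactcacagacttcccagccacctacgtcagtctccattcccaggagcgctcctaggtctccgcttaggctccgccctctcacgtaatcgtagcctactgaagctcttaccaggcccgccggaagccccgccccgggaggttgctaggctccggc
Ambra1 (chr2:91729888-91730133, + strand): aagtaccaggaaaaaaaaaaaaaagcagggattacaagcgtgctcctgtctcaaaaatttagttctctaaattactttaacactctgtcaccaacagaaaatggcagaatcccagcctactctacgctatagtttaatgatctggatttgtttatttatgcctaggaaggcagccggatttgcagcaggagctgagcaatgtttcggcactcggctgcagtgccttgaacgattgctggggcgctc
Pik3r4 (chr9:105642745-105642977, + strand): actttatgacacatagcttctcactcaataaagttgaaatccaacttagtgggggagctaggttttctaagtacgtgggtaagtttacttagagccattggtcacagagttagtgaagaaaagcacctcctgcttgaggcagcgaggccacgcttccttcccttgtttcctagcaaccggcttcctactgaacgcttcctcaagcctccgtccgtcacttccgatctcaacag
Atg3 held the E-box 2 times and Atg5 held it 1 time. Over the 250 upstream bases the E-box was found, on either strand, in 3 of 32 members (Atg3, Atg5 and Atg7) and in 6.86% of 27025 genes; the Atg7 window lies inside the deposited gene and is not printed. The FOXO element TGTTTAC, the NF-κB element and the amino acid response form TGATGNAA were in none of the 32 members and in 3.54%, 0.414% and 3.91% of all genes. The 3 members that hold the E-box differed in their change: Atg3 rose, Atg5 fell and Atg7 did not pass the test, as given below.

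On the TMM scale the mRNAs of the machinery did not change in 1 direction. In treated cells the genes for all 5 Atg8-family proteins, for beclin 1 and for the cargo receptors Calcoco1 and Sqstm1 rose on the TMM scale, while the other subunits of the beclin 1 complex, most of the ULK1 complex and the tether gene Epg5 fell. Levels are CPM, each count relative to its library total after scaling by TMM, a factor that sets the bulk of genes equal between libraries, and a gene was called at an adjusted p under 0.05 in edgeR's quasi-likelihood test over 13290 genes. Means are given ± SD over 3 libraries a group, and log2 fold changes ± SE. Of the 39 members, 11 rose, against 34.6% of all tested genes, 22 fell, against 40.2% of all tested genes, and 6 were not called. As shares of the members these are 28.2% and 56.4%, and 74.8% of all tested genes were called in either direction. Values of the groups did not overlap for 12 higher and 24 lower members, against 35.9% and 42.0% of all genes. Rises of over 1 on the log2 scale were called for 8 members, against 27.1% of all genes, and falls beyond −2 for 8 members, against 17.9% of all genes. The median log2 fold change of the members was −0.61, or −0.43 relative to that of all tested genes (−0.18), with per-library differences of −0.43, −0.36 and −0.57 in treated replicates 1, 2 and 3.

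All 39 members passed the expression filter. Of these, 5 (Pik3c3, Atg14, Ambra1, Atg4c and Epg5) had fewer than 3 treated libraries over the filter level of 0.578 CPM. They passed through their control values, so their inclusion depended on being high in controls. All 5 are among the 22 members that fell, and Pik3c3, Ambra1, Atg4c and Epg5 are among the 8 with falls beyond −2. Both counts therefore draw in part on members included that way. Scaling sets where 0 lies. By library size alone the median of all genes moved by −1.04, and with cytosolic ribosomal protein genes held equal by −2.38. The members then counted 6 higher and 29 lower, and 1 higher and 34 lower. Of all called genes, 46.3% were higher by TMM, 22.3% on the library size scale and 2.24% on the ribosomal protein scale. RNA per cell was not measured, so every change is relative, and in bulk RNA fewer cells of a kind and less RNA per cell cannot be told apart. Whether the libraries stem from separate cultures is not in the labels, and each p-value therefore reflects library-to-library spread that may be technical.

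**Figure D1:**
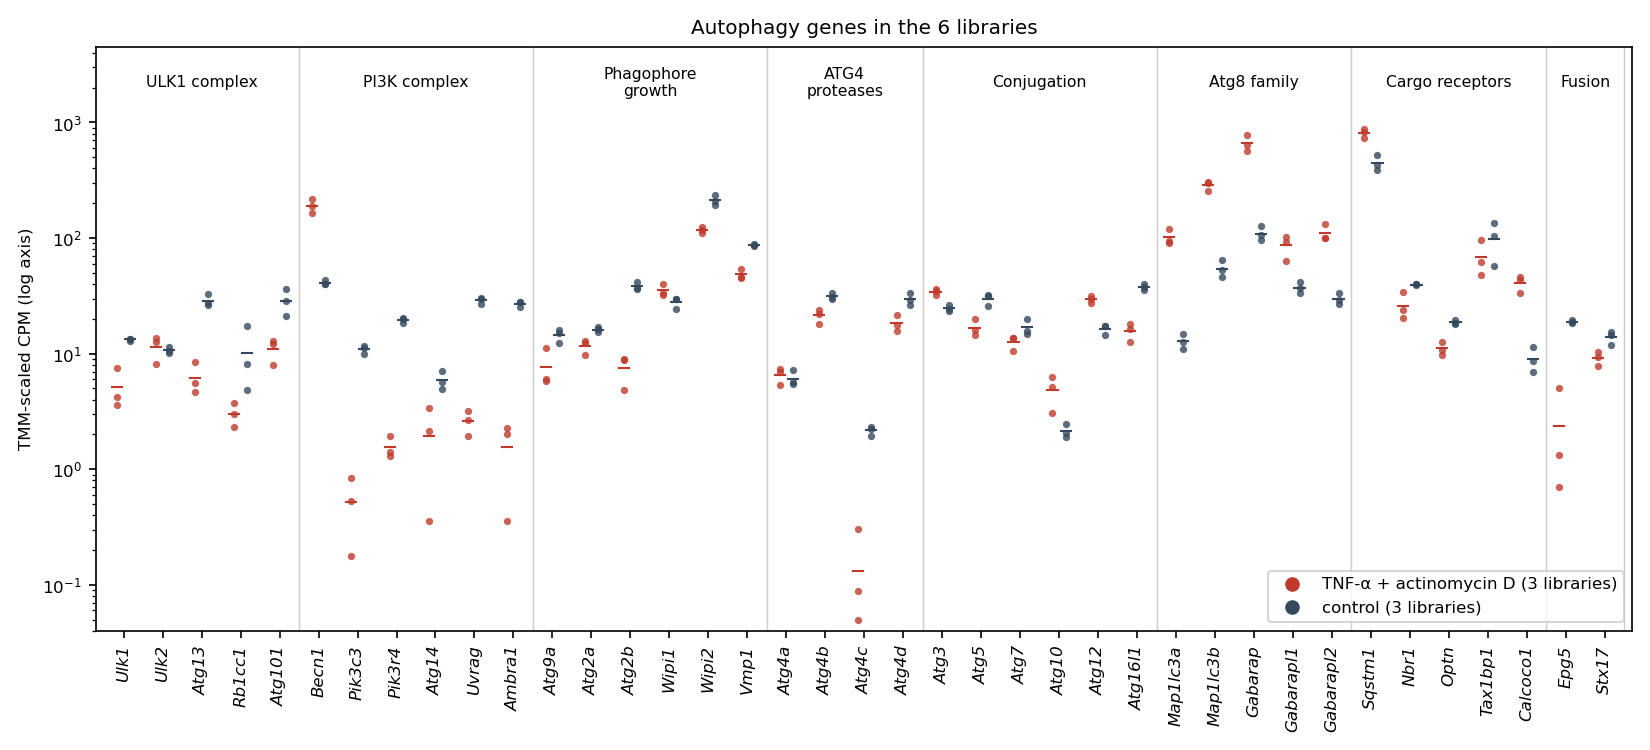
TMM-scaled CPM (log axis) of the 39 genes by role, with treated libraries left of control libraries; points are single libraries and dashes group means, and the single value of 0 (Atg4c, treated replicate 1) is drawn at the lower edge. All 5 Atg8-family genes lie higher in treated libraries, and Pik3c3, Pik3r4, Uvrag and Ambra1 lie far lower.

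The Atg8 family rose in all 5 members, where 34.6% of all tested genes did. These ubiquitin-like proteins are joined to the phagophore membrane and bind cargo receptors there. Map1lc3a and Gabarap are under 2000 bases by deposited length, a class in which 60.0% of all genes rose. Gabarapl1 and Gabarapl2 have 2000 to under 4000 bases, where 40.7% did, and Map1lc3b 4000 to under 8000 bases, where 23.9% did. Gabarap, which works late in autophagosome maturation and spans chromosome 11, 69991143 to 69994951, had 639, 777 and 564 CPM in treated libraries, against 126, 95.4 and 106 CPM in control libraries. Map1lc3b, for LC3B, the usual marker protein of autophagosomes (chromosome 8, 121590361 to 121598760), had 298, 308 and 254 CPM in treated libraries, against 64, 45.8 and 53.4 CPM in control libraries. Its paralogue Map1lc3a had 94.8, 121 and 90.6 CPM in treated libraries, against 14.9, 11 and 12.7 CPM in control libraries. In each of these 3 genes every treated library lay above every control library. The log2 fold changes were 2.60 ± 0.19 for Gabarap, 2.40 ± 0.17 for Map1lc3b and 2.99 ± 0.19 for Map1lc3a (SE), or 6.05-fold, 5.27-fold and 7.94-fold.

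The remaining GABARAP paralogues rose less. Gabarapl2, also known as GATE-16, had 132, 100.1 and 99.5 CPM in treated libraries, against 33.6, 26.9 and 29.4 CPM in control libraries, a log2 fold change of 1.88 ± 0.17. Gabarapl1 had 102, 92.9 and 63.8 CPM in treated libraries, against 41.9, 33.2 and 36.9 CPM in control libraries, a change of 1.21 ± 0.20, with treated replicate 3 lowest. Neither gene's groups overlapped. Adjusted p-values of the family in edgeR's quasi-likelihood test ran from 5.3e-07 to 0.000202. By library size alone all 5 changes stayed positive but Gabarapl1 was not called (0.15), and with ribosomal protein genes held equal Map1lc3a alone stayed called higher (0.60), Gabarap and Map1lc3b were near 0 (0.19 and 0.00305), and Gabarapl2 and Gabarapl1 turned negative (−0.52 and −1.23). Gabarapl1 shares 28.3% of its exonic bases with 1700101I11Rik on the other strand, which held 1 count in each group, and 12.2% of the 50-base words of Gabarapl2 occur in other genes, Gm3724 foremost, with 24 treated and 17 control counts.

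The family's share of the counts of all 39 genes, which no scaling factor alters, was 41.4% to 45.6% in treated libraries, against 13.3% to 15.3% in control libraries. The share of phagophore growth genes was 7.54% to 8.58% in treated libraries, against 23.1% to 23.3% in control libraries. That of the ULK1 complex was 1.23% to 1.42% in treated libraries, against 5.18% to 5.62% in control libraries. Cargo receptors took 33% to 35.3% in treated and 35.4% to 36.7% in control libraries. Together the 39 genes held 0.184% to 0.206% of all counts in treated and 0.243% to 0.246% in control libraries. Per kilobase of deposited length, Gabarap ranked first among the 39 in treated libraries (358 ± 58.5 CPM per kb) and Sqstm1 next (243 ± 23.6), while in control libraries Sqstm1 (133 ± 21) stood above Gabarap (59.2 ± 8.52). Map1lc3a, Gabarapl2, Gabarapl1 and Map1lc3b held treated ranks 3 to 6 and control ranks 9, 7, 5 and 12. These ranks depend on the gene lengths used. Map1lc3b has 7517 bases by deposited length and 2532 in its principal GENCODE M21 transcript, and Wipi2 10543 and 1959. Ranks by transcript length were not computed.

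**Figure D2:**
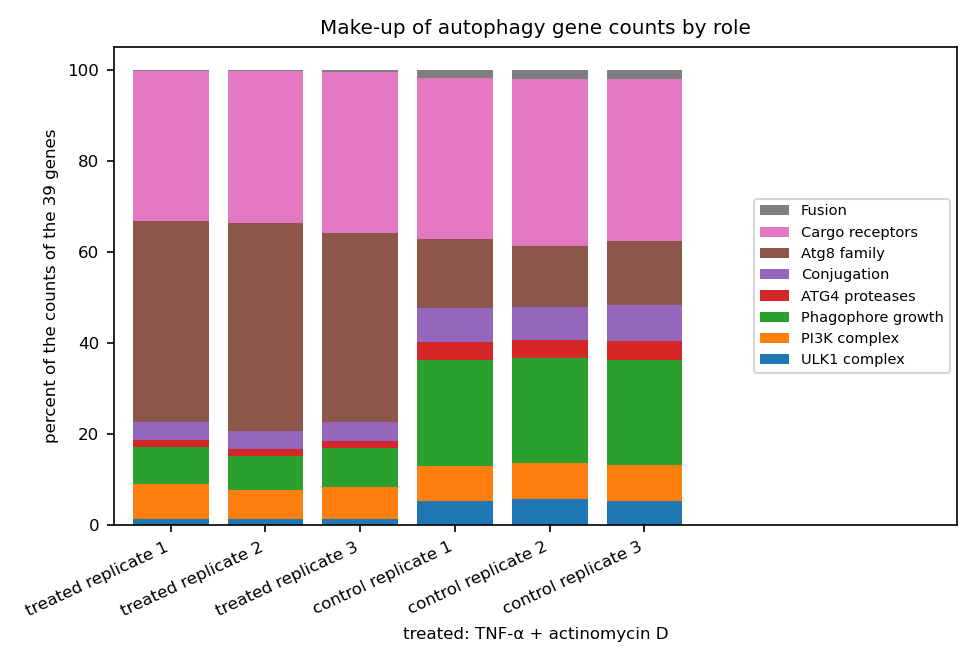
Percent of the counts of the 39 genes held by each role (stacked bars) in treated replicates 1 to 3 and control replicates 1 to 3. The Atg8 family takes 41.4% to 45.6% in treated libraries and 13.3% to 15.3% in control libraries.

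Beclin 1 and its partners moved in opposite directions. Becn1, the scaffold of the class III phosphatidylinositol 3-kinase complex (chromosome 11, 101285952 to 101302286), had 217, 188 and 166 CPM in treated libraries, against 43.1, 39.8 and 39.8 CPM in control libraries, a log2 fold change of 2.22 ± 0.16. The other 5 genes of the complex fell, where 40.2% of all tested genes did. Among the 5, Pik3c3, Ambra1 and Atg14 passed the expression filter only through their control values. Pik3c3, the lipid kinase VPS34 itself (chromosome 18, 30272747 to 30348126), had 0.177, 0.530 and 0.840 CPM in treated libraries, against 11.3, 10.02 and 11.7 CPM in control libraries, and in counts 2, 6 and 11 against 272, 245 and 297. Pik3r4, its regulatory subunit VPS15, had 1.94, 1.41 and 1.298 CPM in treated libraries, against 19.96, 20.2 and 18.6 CPM in control libraries. In both genes the groups lay far apart, and a few counts set each treated value of Pik3c3. Ambra1, a beclin 1 partner that promotes the complex, had 2.03, 0.354 and 2.29 CPM in treated libraries, against 28.2, 25.3 and 27.9 CPM in control libraries. Uvrag, the subunit of the complex acting on endosomes and late autophagosomes, had 1.94, 2.65 and 3.21 CPM in treated libraries, against 30.5, 26.9 and 29.4 CPM in control libraries. Atg14, the subunit that directs the complex to the phagophore, averaged 1.94 ± 1.51 CPM in treated libraries and 5.91 ± 1.11 CPM in control libraries (SD, n = 3), with treated replicate 1 lowest at 0.353 CPM and treated replicate 3 highest at 3.36 CPM.

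The fitted log2 fold changes were −4.37 ± 0.40 for Pik3c3, −4.10 ± 0.43 for Ambra1, −3.66 ± 0.26 for Pik3r4, −3.47 ± 0.24 for Uvrag and −1.58 ± 0.53 for Atg14 (SE). With summed counts set against TMM-scaled library totals, the treated to control ratio was 0.0483 for Pik3c3 (95% exact counting interval 0.0289 to 0.0759) and 0.0588 for Ambra1 (0.0444 to 0.0765); these intervals cover counting error only and move with the scaling. Without treated replicate 3 the change of Pik3c3 became −4.97 and that of Atg14 −2.28. The Atg14 call (adjusted p = 0.02 in edgeR) was lost without treated replicate 2 (adjusted p = 0.0647) or control replicate 1 (adjusted p = 0.0621). With the gene length trend removed all 5 were again called lower. The rise of Becn1 held by library size (1.16) and turned to −0.20, not called, with ribosomal protein genes held equal. Of the exonic bases of Becn1, 43.9% are shared with Cntd1 on the other strand, which held 2 counts in treated and 8 in control libraries, and 17.6% of those of Uvrag with Gm45187, which held 0 and 1.

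Of the 5 genes of the ULK1 initiation complex 4 fell, against 40.2% of all tested genes, and Ulk2 was not called. Atg13, the adaptor that links the kinase to its partners, averaged 6.20 ± 1.95 CPM in treated libraries and 28.8 ± 3.27 CPM in control libraries, a log2 fold change of −2.22 ± 0.25. Atg101, which stabilises Atg13, averaged 11 ± 2.60 CPM in treated libraries and 28.7 ± 7.63 CPM in control libraries (−1.39 ± 0.26). Rb1cc1, the scaffold FIP200 and with 14690 bases the longest member by deposited length, averaged 2.99 ± 0.705 CPM in treated libraries and 10.1 ± 6.52 CPM in control libraries (−1.75 ± 0.45). Its control libraries ranged widely, at 4.80, 17.4 and 8.06 CPM, and without control replicate 2 the change became −1.13. The kinase paralogues differed from each other. Ulk1 had 3.62, 4.24 and 7.48 CPM in treated libraries, against 13.5, 13.4 and 13 CPM in control libraries, and fell by 1.37 ± 0.29 on the log2 scale. Ulk2 had 8.21, 12.7 and 13.6 CPM in treated libraries, against 10.1, 10.5 and 11.4 CPM in control libraries, groups that overlapped (log2 fold change 0.11 ± 0.24, adjusted p = 0.682 in edgeR).

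Of the 6 genes that enlarge the phagophore 4 fell, against 40.2% of all tested genes. Wipi2, which binds the lipid made by VPS34 and recruits the conjugation machinery, had 118, 125 and 111 CPM in treated libraries, against 235, 193 and 208 CPM in control libraries, a change of −0.84 ± 0.15. Vmp1, a lipid scramblase of the endoplasmic reticulum, averaged 48.5 ± 4.91 CPM in treated libraries and 87.4 ± 1.78 CPM in control libraries (−0.85 ± 0.15). Atg9a, the scramblase of the vesicles that seed the phagophore, averaged 7.71 ± 3.11 CPM in treated libraries and 14.5 ± 1.90 CPM in control libraries (−0.91 ± 0.29); 31.8% of its exonic bases are shared with Gm29253 on the same strand, which held 2 treated and 0 control counts, and 0.798% with Ankzf1 on the other strand, which held 245 and 745. With the length trend removed Vmp1 and Atg2b alone of this role stayed called lower, Atg9a was not called (−0.22) and Wipi2 turned to 0.34, not called. The lipid transfer protein genes Atg2a and Atg2b were unequal. Atg2b had 4.86, 8.93 and 8.86 CPM in treated libraries, against 41.5, 36.1 and 37.1 CPM in control libraries, a change of −2.34 ± 0.25. Atg2a had 9.80, 12.8 and 12.3 CPM in treated libraries, against 16.2, 15.3 and 16.9 CPM in control libraries, groups that did not overlap although the gene was not called (−0.47 ± 0.20, adjusted p = 0.0544 in edgeR). It was called lower without any 1 of the treated libraries, the lowest value being −0.62. Wipi1, the paralogue of Wipi2, had 40.3, 31.9 and 33.7 CPM in treated libraries, against 29.8, 24.4 and 29.8 CPM in control libraries, also without overlap and not called (0.33 ± 0.18, adjusted p = 0.111).

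Of the ATG4 proteases, which trim Atg8-family precursors and release lipid-bound protein from membranes, 3 of 4 fell, against 40.2% of all tested genes. With the length trend removed Atg4c alone stayed called lower (−3.82), and Atg4b (0.48) and Atg4d (0.24) turned positive without a call. Atg4c, the protease gene with the lowest level, had 0, 1 and 4 counts in treated libraries, against 47, 55 and 59 counts in control libraries. Relative to TMM-scaled library totals its treated to control ratio was 0.0643 (95% exact counting interval 0.0206 to 0.153, counting error only), and the fitted change of −3.91 ± 0.68 became −5.47 without treated replicate 3. Atg4b, the main protease of the group, averaged 21.4 ± 2.93 CPM in treated libraries and 31.4 ± 2.03 CPM in control libraries (−0.55 ± 0.18, adjusted p = 0.016 in edgeR). Atg4d had 17.7, 21.7 and 15.6 CPM in treated libraries, against 33.3, 26.6 and 29.3 CPM in control libraries (−0.70 ± 0.19); 19.3% of its exonic bases are shared with Kri1 on the other strand, which was also called lower (−1.46). Atg4a had 6.89, 5.39 and 7.33 CPM in treated libraries, against 5.63, 5.44 and 7.19 CPM in control libraries, groups that overlapped (0.10 ± 0.25, adjusted p = 0.724). Of its 50-base words, 51.2% occur in other genes, foremost the pseudogene Atg4a-ps, so its level is uncertain.

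Genes of the conjugation systems were split, with 3 of 6 higher and 2 lower, shares set against 34.6% and 40.2% of all tested genes. Atg12, the ubiquitin-like protein that is joined to Atg5, had 27.2, 31.5 and 29.8 CPM in treated libraries, against 17.2, 14.6 and 17.3 CPM in control libraries, a change of 0.85 ± 0.18. Atg5 had 19.8, 16 and 14.5 CPM in treated libraries, against 32.2, 25.8 and 31.7 CPM in control libraries, a change of −0.84 ± 0.20. The partners of the conjugate moved apart, with no overlap in either gene. Atg16l1, which brings the conjugate to the membrane, averaged 15.6 ± 2.76 CPM in treated libraries and 37.9 ± 2.34 CPM in control libraries (−1.27 ± 0.19). Of the E2-like enzymes, Atg10, which loads Atg12, averaged 4.85 ± 1.62 CPM in treated libraries and 2.13 ± 0.283 CPM in control libraries (1.18 ± 0.34), and Atg3, which attaches the Atg8 family to lipid, averaged 34.4 ± 2.15 CPM in treated libraries and 24.7 ± 1.35 CPM in control libraries (0.48 ± 0.16, adjusted p = 0.0198 in edgeR). The fall of Atg16l1 lost its call with the length trend removed (−0.18). The Atg3 call was lost without treated replicate 1 or any 1 of the controls, and that of Atg10 without treated replicate 2. Atg7, the E1-like enzyme of both systems, had 13.7, 13.8 and 10.5 CPM in treated libraries, against 19.997, 14.8 and 15.8 CPM in control libraries, groups without overlap but not called (−0.41 ± 0.22, adjusted p = 0.104); without treated replicate 1 it was called lower (−0.55). By library size alone Atg3 and Atg12 turned negative (−0.56, called, and −0.19, not called) and Atg10 was not called (0.15), and with ribosomal protein genes held equal all 3 were called lower.

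Cargo receptors, which bind ubiquitinated cargo or membranes and Atg8-family proteins at once, also split. Sqstm1, the gene of p62 (chromosome 11, 50199366 to 50210827) and the member with the most counts, had 832, 886 and 730.3 CPM in treated libraries, against 523, 385 and 431 CPM in control libraries, a change of 0.87 ± 0.17. Of its exonic bases 17.3% are shared with Mrnip on the other strand, which held 50 treated and 84 control counts. By library size alone its change was −0.17, not called, and with ribosomal protein genes held equal −1.52, called lower. Calcoco1, a receptor for the endoplasmic reticulum and Golgi (chromosome 15, 102706777 to 102722178), had 33.4, 45.9 and 43.7 CPM in treated libraries, against 11.5, 6.95 and 8.69 CPM in control libraries, a change of 2.18 ± 0.23 that held by library size (1.16) and turned to −0.16, not called, with ribosomal protein genes held equal. Nbr1, a receptor built like p62, had 23.9, 20.4 and 33.8 CPM in treated libraries, against 39.8, 40.1 and 38.9 CPM in control libraries, a change of −0.60 ± 0.20. Optn, for optineurin, a receptor for damaged mitochondria and bacteria, averaged 11.1 ± 1.42 CPM in treated libraries and 18.7 ± 0.593 CPM in control libraries (−0.75 ± 0.20). Tax1bp1, a receptor for protein aggregates, had 48.4, 62.3 and 96.6 CPM in treated libraries, against 57.5, 135 and 105 CPM in control libraries. Its groups overlapped, control replicate 1 lying below treated replicates 2 and 3, and it was not called (−0.52 ± 0.32, adjusted p = 0.162 in edgeR), but was called lower without control replicate 1 (−0.82). For fusion with the lysosome, the tether gene Epg5 had 0.706, 1.33 and 5.04 CPM in treated libraries, against 19.5, 18.7 and 18.4 CPM in control libraries, a change of −2.97 ± 0.52 that became −4.25 without treated replicate 3. Stx17, the fusion protein of the closed autophagosome, averaged 9.15 ± 1.23 CPM in treated libraries and 14 ± 1.88 CPM in control libraries (−0.61 ± 0.22), and its call was lost without control replicate 2 or 3.

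**Figure D3:**
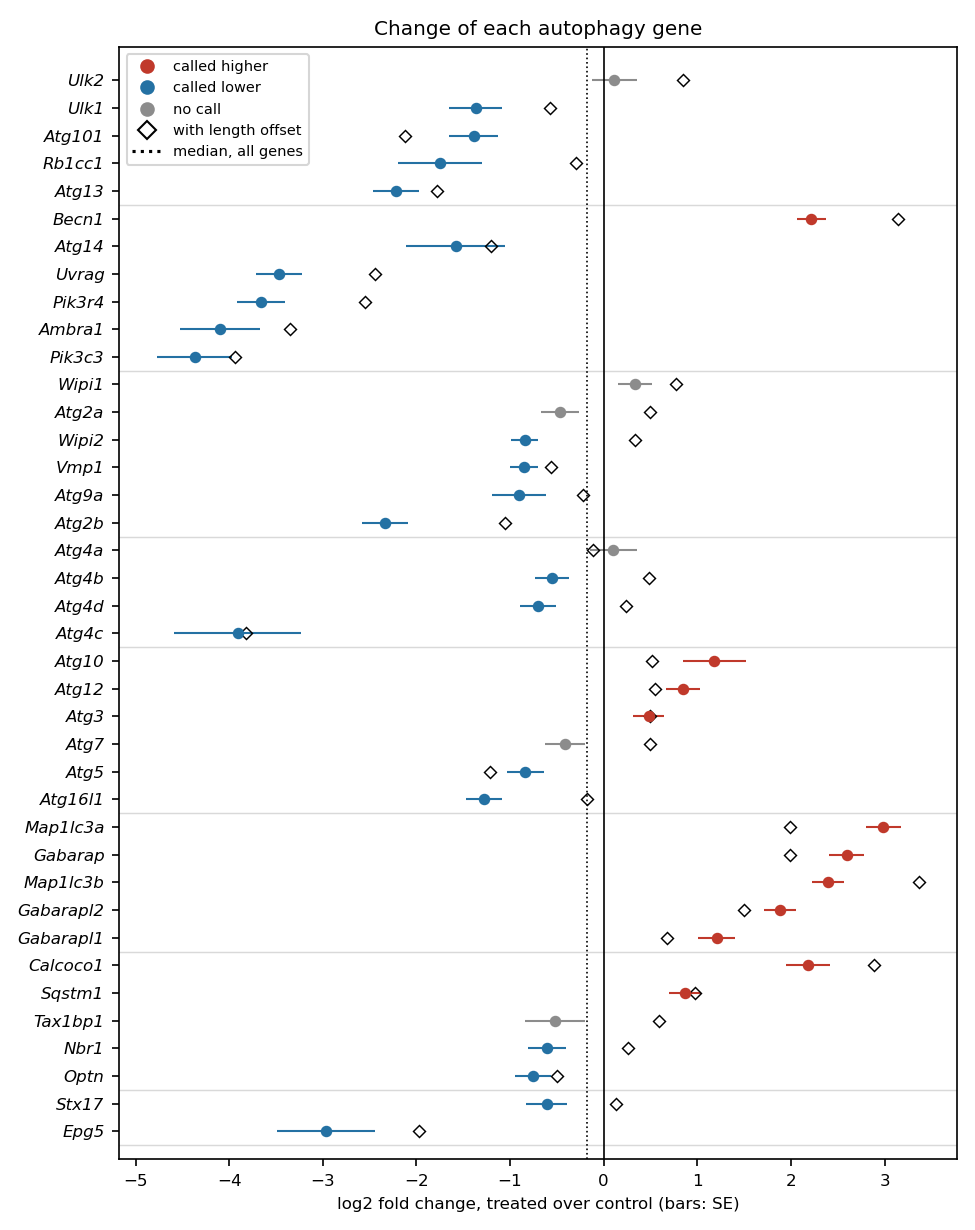
Log2 fold change of each gene, treated over control, by role from top (ULK1 complex) to bottom (fusion); circles are edgeR estimates with SE, diamonds the estimates after the gene length trend was removed, and the dotted line is the median of all tested genes (−0.18). Becn1 lies apart from the other 5 genes of its complex, and 14 of the 22 lower calls remain with the length trend removed.

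Gene length went with the change. Over all 13290 genes the log2 fold change correlated with log2 deposited length at r = −0.40 (rho = −0.42), and over the 39 members at r = −0.44 (rho = −0.40). Across members the relation was r = −0.65 with coding length, −0.57 with the number of exons, −0.58 with genomic span and 0.00305 with 3′ UTR length. All points share the same 6 libraries, so these are descriptions. Members called higher had a median deposited length of 2492 bases and a median of 4 exons, and members called lower 6305 bases and 15.5 exons. Of the 4 members under 2000 bases 3 rose and 1 fell, where 60.0% and 15.3% of all genes of that length did. Of the 10 members from 2000 to under 4000 bases 5 rose and 4 fell, where 40.7% and 32.8% of such genes did. Of the 16 members from 4000 to under 8000 bases 3 rose and 9 fell, where 23.9% and 50.2% of such genes did. Of the 9 members of 8000 bases or more 0 rose and 8 fell, where 11.5% and 66.8% of such genes did. The 1 short member that fell was Atg101 (1597 bases), and the 3 that rose in the third class were Map1lc3b (7517 bases), Becn1 (7065 bases) and Calcoco1 (5731 bases). With the length trend removed 14 members were called higher and 14 lower, and the members' median lay 0.16 above that of all genes. The 14 lower calls were all among the 22 without that step, and 10 of the 11 higher calls were kept. Wipi2, Atg4b, Atg4d, Nbr1 and Stx17 turned positive without a call, and Rb1cc1, Atg9a and Atg16l1 were no longer called. Atg2a, Tax1bp1, Ulk2 and Wipi1 were then called higher, and Atg10 was not called.

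**Figure D4:**
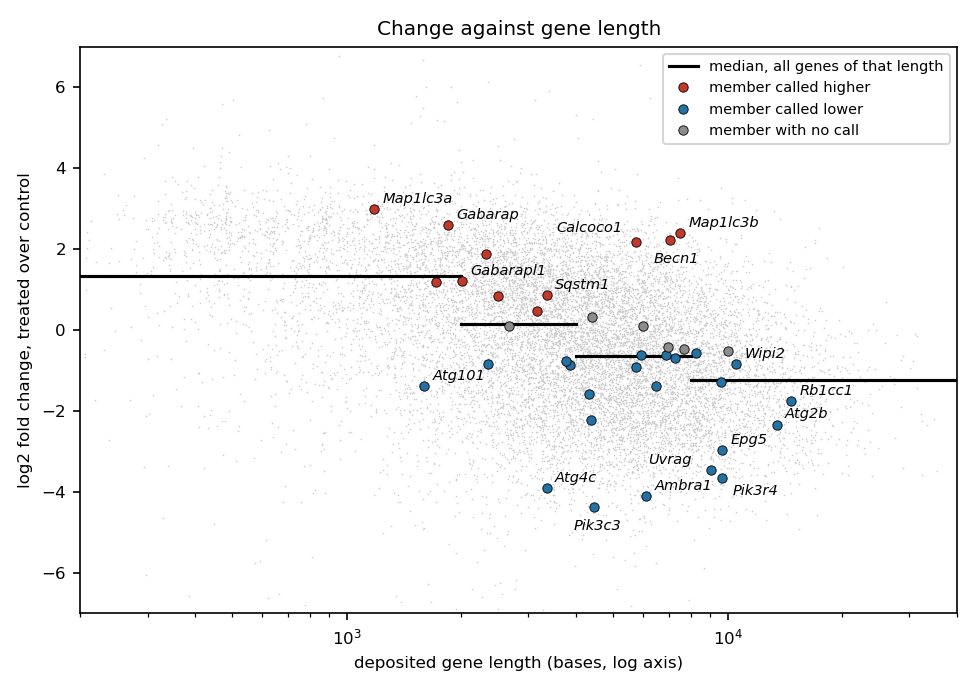
Log2 fold change, treated over control, against deposited gene length (log axis) for all tested genes within the axes (grey) and the 39 members; black lines are medians of all genes in 4 length classes. Those medians run from 1.33 under 2000 bases to −1.24 at 8000 bases or more, and Becn1, Calcoco1 and Map1lc3b lie above and Atg101 and Atg4c below genes of like length.

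Ratios of paralogues and partners within a library do not depend on the scaling factor. They were not adjusted for the gene length trend. Of 12 pairs set as log2 ratios of length-scaled counts, 10 did not overlap between groups, where 35.9% of all single genes were higher and 42.0% lower without overlap, and the share over other gene pairs was not measured. Each of these 10 had a two-sided exact permutation p of 0.1, the smallest that 3 against 3 allow, and 0.12 after Benjamini-Hochberg adjustment over the pairs. Ulk1 over Ulk2 was −1.28, −1.68 and −0.97 in treated libraries, against 0.29, 0.24 and 0.0687 in control libraries, so the order of the kinases differed between groups. Atg2a over Atg2b was 1.81, 1.32 and 1.28 in treated libraries, against −0.55, −0.43 and −0.33 in control libraries. Atg12 over Atg5 was 0.37, 0.89 and 0.95 in treated libraries, against −0.99, −0.90 and −0.95 in control libraries. In all 3 pairs the sign of the log2 ratio differed between groups. The sign, unlike the shift between groups, depends on the gene lengths used. Atg12 has 2492 bases by deposited length and 4765 in its principal GENCODE M21 transcript. Sqstm1 over Nbr1 was 6.15, 6.47 and 5.46 in treated libraries, against 4.75, 4.30 and 4.502 in control libraries. Within the Atg8 family, Gabarapl1 over Gabarap was −2.77, −3.19 and −3.27 in treated libraries, against −1.72, −1.65 and −1.64 in control libraries, and Gabarapl2 over Gabarap −2.61, −3.29 and −2.84 in treated libraries, against −2.24, −2.16 and −2.18 in control libraries. Map1lc3b over Gabarap was −3.13, −3.36 and −3.18 in treated libraries, against −3.01, −3.08 and −3.01 in control libraries, the smallest shift of the 10 (−0.19). The shift was 0.58 for Map1lc3a over Map1lc3b, 1.17 for Wipi1 over Wipi2 and −2.91 for Atg4c over Atg4d. Groups overlapped for Atg14 over Uvrag (−1.14, 0.75 and 1.13 in treated libraries, against −1.03, −1.37 and −1.31 in control libraries) and for Atg4a over Atg4b, each with an exact permutation p of 0.2.

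**Figure D5:**
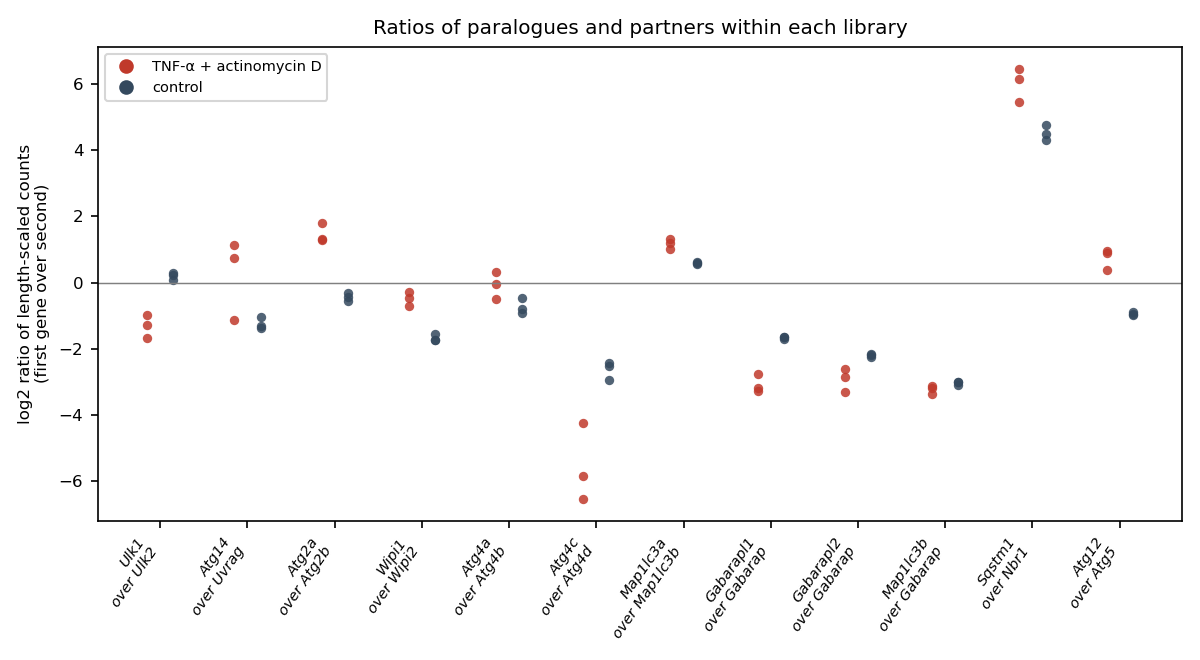
Log2 ratio of length-scaled counts (1 count added to each gene) for the 12 pairs, with the 3 treated libraries left of the 3 control libraries in each. The groups overlap only for Atg14 over Uvrag and Atg4a over Atg4b.

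The wider pathway was read from 5 further lists. Of 29 tested genes of mTORC1 and AMPK signalling, the nutrient and energy kinases that restrain and promote autophagy, 10 rose and 13 fell, near the 34.6% and 40.2% of all tested genes (median −0.32, against −0.18 over all genes). Subunits of the lysosomal Ragulator scaffold led the rises. Lamtor2 averaged 298 ± 119.8 CPM in treated and 38.2 ± 2.63 CPM in control libraries (2.96 ± 0.26). Lamtor4 changed by 2.75 ± 0.23 and Lamtor5 by 1.74 ± 0.20. With the length trend removed these genes stayed called higher, at 1.96, 1.81 and 0.49. Of the same scaffold, Lamtor1 rose (1.61 ± 0.20) and Lamtor3 fell (−0.62 ± 0.17), both named after their values were seen. The falls were led by Prkaa1, the catalytic subunit of AMPK, at 10.8 ± 1.89 CPM in treated and 71.4 ± 7.83 CPM in control libraries (−2.72 ± 0.20), and by the stress-induced mTORC1 inhibitors Sesn2 (−2.43 ± 0.24) and Sesn1 (−2.22 ± 0.39). Among 9 tested transcription regulators of autophagy genes 8 fell and 1 rose, against 40.2% and 34.6% of all tested genes (median −2.63). Of the falls, Mitf and Foxo1 averaged 0.102 and 0.543 CPM in treated libraries, below the filter level of 0.578 CPM, and 1.72 and 3.35 CPM in control libraries. Both passed the filter only through their control values, so the count of falls and the median draw in part on genes included that way. How many genes of the 5 further lists passed that way was not counted. Tfeb averaged 0.963 ± 0.303 CPM in treated and 7.32 ± 1.36 CPM in control libraries (−2.90 ± 0.34), while its relative Tfe3 averaged 52 ± 5.81 CPM in treated and 38.7 ± 3.75 CPM in control libraries (0.43 ± 0.17, adjusted p = 0.0355 in edgeR). Xbp1, a factor of the unfolded protein response, changed by −3.16 ± 0.21.

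Of 16 other autophagosome factors 8 rose and 7 fell, where 34.6% and 40.2% of all tested genes did; the same shares apply to the lists that follow. Atg9b, the paralogue of Atg9a, rose by 3.04 ± 0.30 (9.82 ± 2.48 CPM in treated and 1.19 ± 0.178 CPM in control libraries), and Trp53inp2 and Trp53inp1, which bind Atg8-family proteins, changed by 2.50 ± 0.27 and 2.08 ± 0.58. Nrbf2, a further subunit of the beclin 1 complex, fell with Pik3c3 and its partners, at 1.08 ± 0.674 CPM in treated and 14.7 ± 2.09 CPM in control libraries (−3.75 ± 0.40). Wdfy3, a scaffold for clearing protein aggregates, changed by −2.60 ± 0.20 and Tmem41b, a scramblase that works with Vmp1, by −2.57 ± 0.18. Of 14 tested receptors and regulators of selective autophagy 6 rose and 3 fell. Pink1, the kinase that marks damaged mitochondria, averaged 103 ± 14.3 CPM in treated and 15 ± 3.89 CPM in control libraries (2.78 ± 0.22), Fkbp8, a mitochondrial receptor, changed by 2.33 ± 0.19 and Rtn3, a receptor for the endoplasmic reticulum, by 1.28 ± 0.14. Tbk1, the kinase that phosphorylates optineurin and p62, averaged 2.83 ± 0.848 CPM in treated and 42.5 ± 3.61 CPM in control libraries (−3.90 ± 0.25), Bnip3, a mitochondrial receptor, changed by −1.47 ± 0.37 and Retreg1, a receptor for the endoplasmic reticulum, by −0.92 ± 0.24. Of 13 tested tethering and fusion partners 5 rose and 5 fell. The fusion proteins Vamp8 (2.06 ± 0.26), Ykt6 (1.61 ± 0.16) and Vamp7 (1.26 ± 0.24) rose. The tethering subunit Vps18 (−3.93 ± 0.27), the adaptor Plekhm1 (−1.61 ± 0.22) and Snap29, the partner of Stx17 (−1.29 ± 0.20), fell. Of the rises, 5 of 10 in mTORC1 and AMPK signalling, 0 of 1 among transcription regulators, 3 of 8 among autophagosome factors, 2 of 6 among selective receptors and 2 of 5 among fusion partners were called again by library size, and 0 in any list with ribosomal protein genes held equal. Tfe3 turned to −0.61, called lower, by library size. Both scalings shift genes downward as a whole and so say nothing of the stability of the falls. With the length trend removed the falls called again were 7 of 13 in mTORC1 and AMPK signalling, 7 of 8 among transcription regulators, 7 of 7 among autophagosome factors, 3 of 3 among selective receptors and 3 of 5 among fusion partners. Rheb (0.48) and Vps39 (0.50), named after their values were seen, were then called higher. By median-ratio factors 12 of 13 and 4 of 5 falls were called again in the first and last of these lists, and every fall in the others.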

How the data were processed

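RNA sequencing libraries of L929 cells were analysed from the deposited gene count table. Tools named by the submitters' processing notes were RSEM 1.3.1, HISAT2 2.1.0 and DESeq2 1.24.0; mm10 and GRCm38 were the builds named, with neither role nor order. The authors deposited whole-number counts, and FPKM values that equal, per library, 1 constant times the count over the deposited gene length. No source used here states whether counting used strand.

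Counts were filtered (filterByExpr), scaled by TMM and tested with edgeR 4.0.16 (glmQLFit, robust, and glmQLFTest, R 4.3.3). The p-values for treated over control were adjusted by Benjamini-Hochberg over all 13290 genes. An SE is the log2 fold change over the root of F. Fits were tested on simulated data. Alternatives were other scaling factors and filters, DESeq2 1.42.0, limma 3.58.1 (voom, or FPKM with a mean of 1 or more), a length offset (lowess span 0.3), a replicate block and the omission of each library. The other scalings of the further lists were added after seeing the data. Ratios had 1 count added. Members, lists and pairs were chosen with earlier results of these data known. Values per library are given for the Atg8 family, the 7 largest rises and falls, pairs without overlap and uncalled members, and from other lists the 3 largest rises and falls at 1 CPM or more are named, of which 1 is not reported here. Of the 39 members 37 have the same coordinates in GENCODE M21. Depth was 16056207 to 18036322 counts, and replicates differed beyond sampling noise. Promoters are from RefSeq on GRCm38.p6.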

Additional observations from a re-analysis of the deposited data

How the results depend on the processing

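Over 18 alternatives, 603 member values kept direction and side of the threshold, 27 lost a call, 24 gained one and 42 changed sign. Of the 22 lower members 11 kept their call in every alternative where they were tested (Ambra1, Atg101, Atg13, Atg2b, Atg4c, Atg5, Epg5, Pik3c3, Pik3r4, Uvrag and Vmp1). Of the 11 higher members 1 did (Map1lc3a). Library size and ribosomal protein scaling shift genes downward as a whole, and each kept all 22 lower calls, but 6 and 1 of the higher calls. These counts therefore do not compare the stability of falls with that of rises. By library size alone 6 members were called higher and 2276 genes overall; changed signs were Ulk2 −0.91, Wipi1 −0.71, Atg4a −0.93, Atg3 −0.56, Atg12 −0.19, Sqstm1 −0.17. With ribosomal protein genes held equal 1 member was called higher and 34 lower (251 and 10944 genes overall); changed signs were Ulk2 −2.24, Becn1 −0.20, Wipi1 −2.06, Atg4a −2.27, Atg3 −1.91, Atg10 −1.19, Atg12 −1.53, Gabarapl1 −1.23, Gabarapl2 −0.52, Sqstm1 −1.52, Calcoco1 −0.16. With a gene length offset 14 members were called lower and the median difference from all genes was 0.165; changed signs were Atg2a 0.49, Wipi2 0.34, Atg4a −0.12, Atg4b 0.48, Atg4d 0.24, Atg7 0.49, Nbr1 0.26, Tax1bp1 0.59, Stx17 0.13. With the length offset and a replicate block 12 members were called lower and the median difference was 0.171; changed signs were Atg2a 0.49, Wipi2 0.33, Atg4a −0.12, Atg4b 0.45, Atg4d 0.22, Atg7 0.48, Nbr1 0.25, Tax1bp1 0.63, Stx17 0.13. With no filter Ulk2 was −0.0427 and Atg4a −0.0552. Leaving out 1 library gave 10 to 11 members higher and 21 to 24 lower, a median difference of −0.57 to −0.41, and ranges of −0.0661 to 0.22 for Ulk2 and −0.0295 to 0.21 for Atg4a, the members that changed sign there. The cause of these changes was not tested. The smallest and largest numbers of all genes called without 1 library were 4125 and 4564 higher and 4928 and 5737 lower. DESeq2, limma-voom, median-ratio factors, limma on log2(FPKM + 1) or log2(FPKM + 0.1) and the stricter filter changed no sign; 3 members had too low an FPKM to be tested, and median-ratio factors left Atg4b (adjusted p = 0.059 in edgeR) and Stx17 (adjusted p = 0.052) uncalled. Deviations of same-numbered libraries correlated at r = 0.22, −0.14 and 0.029, and those of libraries with unlike numbers at −0.38 to 0.38. With 3 libraries a group these values cannot show whether same-numbered libraries were prepared together, and the labels do not say. The replicate block left 11 members higher and gave 23 lower, with Tax1bp1 added (−0.49), and its values for all genes were 4450 higher and 5411 lower. The shifts of the 12 ratios between groups kept their sign with 0.1 count added, with FPKM and without each library. FPKM with no prior gave no value for Atg4c over Atg4d, since Atg4c is listed at 0 in 1 library. The length offset was not applied to the ratios. With it, gene changes ran opposite to the shift for Map1lc3a (1.99) over Map1lc3b (3.37), Map1lc3b over Gabarap (1.99) and Atg4a (−0.12) over Atg4b (0.48). For the other pairs they kept the direction of the shift. Depth limits Atg4c and Pik3c3 most, with 5 and 19 treated counts.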

Other observations

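Control libraries differed among themselves most for 2 members. Rb1cc1 had a coefficient of variation of 64.7% over the 3 controls and Tax1bp1 of 39.6%, above 99.5% and 95.3% of genes with at least 1 CPM in controls. In both genes control replicate 1 was lowest and control replicate 2 highest. Tax1bp1 was also uneven in treated libraries, at 48.4, 62.3 and 96.6 CPM. Both genes have long deposited models (14690 and 9991 bases). The part of gene length in this spread was not tested.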
